A study of Ovis aries with 23 samples.

Results

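The comparison of the sheep lung 24 h after injury covers 8 of the 23 animals of the series, 3 with the Ph2 injury and 5 with the Ph1 injury. They were chosen by their labels, as all animals with an observation time of 24 hours, and all 8 came from the STARDUST study. Animals were grown, non-pregnant female sheep of a Merino-Dorset cross, kept anaesthetized on a ventilator. In Ph1 (OA_24h: SD2, SD7, SD10, SD1 and SD14), which models hypoinflammatory acute respiratory distress syndrome (ARDS), the lung was injured with intravenous oleic acid (OA), a fatty acid that damages the lung capillaries. In Ph2 (LPS_IV_24h: SD8, SD9 and SD11), which models the hyperinflammatory form, the same oleic acid injury was followed by an intravenous infusion of lipopolysaccharide (LPS), a bacterial cell wall component. Both groups thus carried the oleic acid injury, and no uninjured animal is among the samples. RNA of the 3 lobes of the right lung was pooled, so that each animal gave 1 value per gene, and each animal is 1 independent replicate.

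Neutrophils are the first leukocytes to enter an injured lung in number. They carry ready-made proteins in granules, while much of the mRNA for these proteins is made earlier, during maturation in the bone marrow, so that granule transcripts are known as marks of young neutrophils. Endotoxin, acting through Toll-like receptor 4 on macrophages and endothelium, is known to release immature neutrophils from the marrow and to switch on inflammatory genes in tissue macrophages. The markers were taken by the study from work on blood leukocytes of patients, and in lung tissue several of them are also transcribed by epithelium, endothelium or stroma.

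The assay (nCounter) hybridizes a pair of probes to each mRNA and counts fluorescent barcodes without amplification. Each capture probe joins 25 bases that are the same for all 22 genes of the probe table to a part complementary to the mRNA of 1 gene. The 6 capture probes of the markers on which the account below turns are shown because the measured level of each is the count of molecules bound by that stretch of sequence. They are given 5′ to 3′ as the probe table writes them, with the shared end in lower case and the part that binds the mRNA in capitals.
MMP8: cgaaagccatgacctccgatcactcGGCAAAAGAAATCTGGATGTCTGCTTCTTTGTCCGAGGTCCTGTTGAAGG
OLFM4: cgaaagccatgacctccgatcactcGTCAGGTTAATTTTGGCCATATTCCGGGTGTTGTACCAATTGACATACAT
TCN1: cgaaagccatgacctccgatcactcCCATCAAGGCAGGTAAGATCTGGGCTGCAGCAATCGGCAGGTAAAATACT
RETN: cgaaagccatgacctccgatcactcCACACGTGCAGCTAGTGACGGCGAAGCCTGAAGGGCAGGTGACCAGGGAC
GPR84: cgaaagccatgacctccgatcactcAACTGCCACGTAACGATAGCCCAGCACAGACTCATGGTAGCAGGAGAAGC
MME: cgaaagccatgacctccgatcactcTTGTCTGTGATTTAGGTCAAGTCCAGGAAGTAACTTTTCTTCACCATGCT
The part in capitals was 50 bases long in these 6 probes, and its GC content was 40.0% for MME and 64.0% for RETN. Probes bind with different efficiency, so levels are compared between animals within a marker and not between markers.

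Values are log2 normalized counts, in which 1 unit is a factor of 2. The 20 features carry tag identifiers only, and the sources used here hold no list that links them to genes. The first 16 rows were given the order of the 16 genes of interest in the probe table, which names 14 markers. The rows T007 and T011 fell on ZDHHC19 and RBP7. The text of the study sets RBP7 aside as too low, together with ZDHHC18, while the probe table has ZDHHC19 and no ZDHHC18. T007 and T011 had the lowest median counts over the 8 animals (6 and 10) and keep their identifiers, as do T036 to T039. In some animals MMP8, OLFM4 or CD177 had fewer counts than T011. The recovered counts of the 20 features summed to between 20265 and 34415 in Ph1 (median 25156) and to between 17798 and 25776 in Ph2 (median 20510). No feature is for a gene that defines lung epithelium, so the tissue label could not be checked against the data.

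At 24 h no marker separated the injury groups. Of the 20 features, 0 (0.0%) had an unadjusted p below 0.05 in the Mann-Whitney U test (exact, two-sided), which with these group sizes requires that the groups do not overlap, and 0 had an adjusted p below 0.05. The smallest p that the 56 possible assignments of 3 of 8 animals allow is 0.0357, and 15 of the 20 features would have had to reach it for an adjusted p below 0.05. All adjusted p-values (Benjamini-Hochberg over the 20 features, exact Mann-Whitney U test) were 1. With other tests the count with an unadjusted p below 0.05 was 1 by an exact permutation of means, 0 by limma on the 8 animals and 1 by limma on all 23 animals, and that 1 was MME both times. Of the 14 markers, 5 had a higher mean in Ph2 and 9 a lower mean, with a median difference of -0.05, against 10 and 10 of all 20 features with a median of -0.00015. When the median of the 14 markers was set equal in all animals, which moved the Ph2 minus Ph1 difference of every feature by 0.22, the split was 9 higher and 5 lower; scaled to the sum of the 20 features it was 8 higher.

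**Figure D1:**
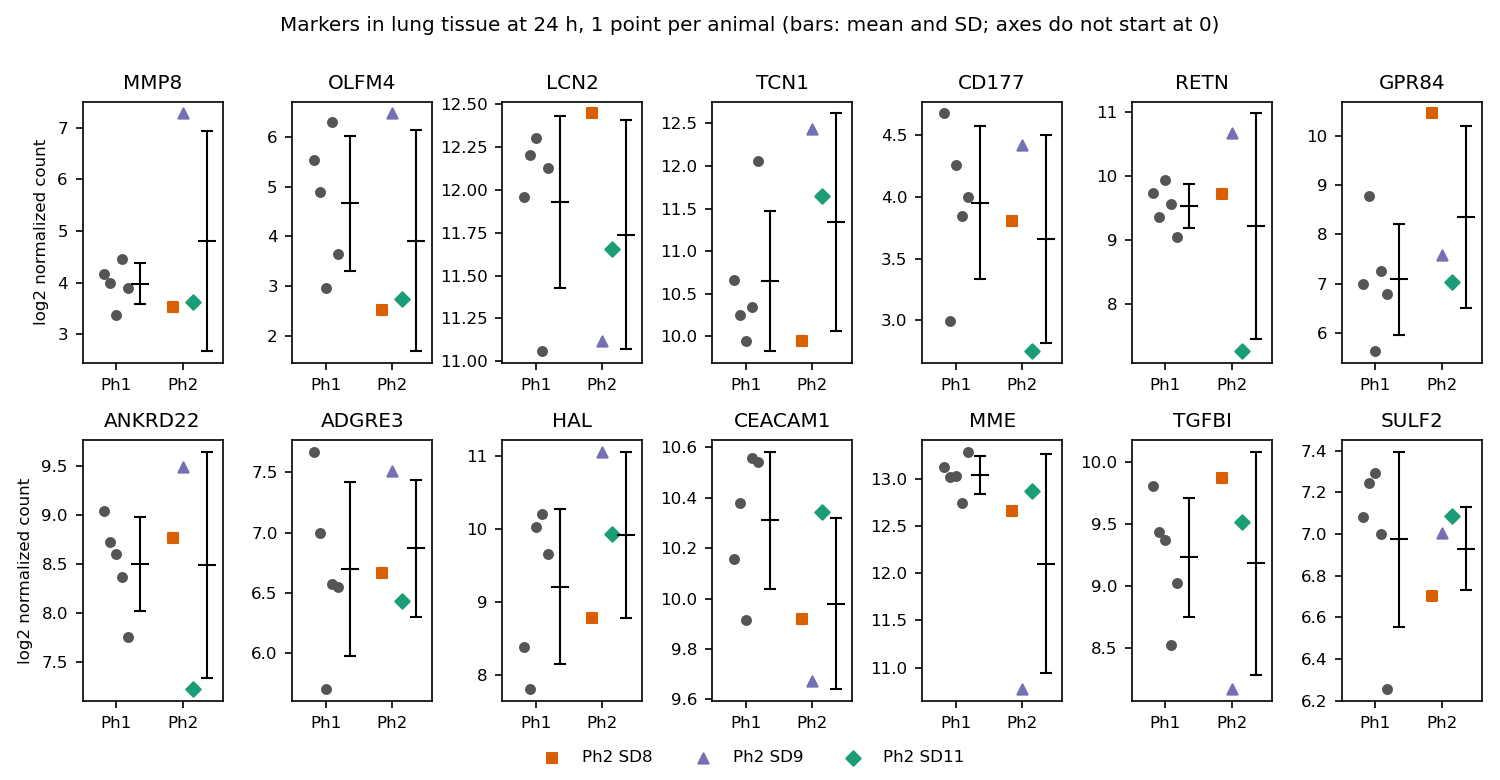
Log2 normalized counts (y axis, a separate scale for each of the 14 markers that does not start at 0) of the 5 Ph1 animals (grey) and the 3 Ph2 animals (orange square SD8, purple triangle SD9, green diamond SD11), with the mean and SD of each group at the right. The groups overlap in all 14 panels, and SD9 lies highest for 6 markers, MMP8 at 7.28 among them.

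Among neutrophil granule and surface genes, 2 of 6 had a higher mean in Ph2 and 4 a lower mean, and exact p-values lay between 0.571 and 1. The highest values of 4 of these genes, MMP8, OLFM4, TCN1 and RETN, were those of a single animal, SD9. MMP8, the collagenase of neutrophil granules, was 4.17 in SD2, 4.00 in SD7, 3.38 in SD10, 4.45 in SD1 and 3.89 in SD14 of Ph1, and 3.52 in SD8, 7.28 in SD9 and 3.63 in SD11 of Ph2. SD9 stood above all others, while SD8 and SD11 lay inside the Ph1 range. The difference of means was 0.83 ± 1.25 (SE; exact p = 1) and turned to -0.40 without SD9. The value of SD9 rests on 160 counts (95% Poisson interval 136 to 187, which covers counting error only), and those of the other animals on 11 to 29, which in 2 animals was no higher than the larger count of T007 and T011. In bulk tissue, fewer cells of a type and less RNA per cell cannot be told apart.

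OLFM4, a glycoprotein of the granules of a subset of neutrophils, was 5.52, 4.88, 2.96, 6.29 and 3.65 in the Ph1 animals SD2, SD7, SD10, SD1 and SD14. In Ph2 it was 2.52 in SD8, 6.47 in SD9 and 2.75 in SD11. All Ph1 animals lay between the low Ph2 animals and SD9, so that the Ph2 values enclosed the Ph1 values on both sides. The difference was -0.75 ± 1.42 (SE; exact p = 0.571), and -0.054 without SD8 and -2.03 without SD9. OLFM4 rested on 7 counts in SD8 and 6 in SD11, which were no higher than the larger count of T007 and T011 in the same animal, and on 91 counts in SD9 and 93 in SD1. With low values raised to that larger count, the difference was -0.14.

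TCN1, which codes for the vitamin B12 binder haptocorrin of neutrophil granules and of gland epithelium, was 10.66, 10.25, 9.95, 10.34 and 12.05 in Ph1 in the same order of animals. It was 9.94 in SD8, 12.43 in SD9 and 11.65 in SD11. SD9, SD14 of Ph1 and SD11 formed the upper end, and SD8 was the lowest animal. The mean was 10.65 ± 0.82 in Ph1 (SD, n = 5) and 11.34 ± 1.27 in Ph2 (SD, n = 3; exact p = 0.786). The difference of 0.69 was 0.14 without SD9 and 1.39 without SD8. TCN1 made up 27.7% of all counts in SD9 (95% Wilson interval 27.1 to 28.3), 4.65% in SD8 and 16.1% in SD11, and between 4.54% and 17% in the Ph1 animals (exact p = 0.571), a share that does not depend on the normalization.

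LCN2, the iron-sequestering lipocalin of neutrophil granules that injured epithelium also makes, was 11.96 in SD2, 12.20 in SD7, 12.30 in SD10, 11.06 in SD1 and 12.13 in SD14. In Ph2 it was 12.45 in SD8, 11.12 in SD9 and 11.65 in SD11. SD9, the animal with the highest MMP8, OLFM4 and TCN1, had the second lowest LCN2. The lowest was that of SD1, which had the highest MMP8 and OLFM4 of Ph1 but the median TCN1 of Ph1. The MMP8 of SD1 rested on 26 counts, against 41 for T011 in that animal. The groups overlapped (difference -0.19 ± 0.45, SE; exact p = 1), and the sign turned without SD9, to 0.12.

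RETN, the secreted protein resistin, known from myeloid cells, had a narrow range in Ph1 with 9.73, 9.36, 9.93, 9.56 and 9.04. Ph2 ran from 7.26 in SD11 through 9.72 in SD8 to 10.67 in SD9. SD11 lay below and SD9 above every Ph1 animal. The means of 9.52 ± 0.34 (SD, n = 5) and 9.22 ± 1.76 (SD, n = 3) differed by -0.31 ± 1.03 (SE; exact p = 1), and the SD was 5.13 times as large in Ph2. CD177, a surface protein of a neutrophil subset, was measured with 6 to 41 counts and lay between 3.00 and 4.67 in Ph1 and between 2.75 and 4.42 in Ph2 (difference -0.30 ± 0.56, SE; exact p = 0.571). In 3 of 8 animals its count was no higher than the larger of those of T007 and T011.

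Of the 3 markers of activated myeloid cells, GPR84 was highest in SD8, and ANKRD22 and ADGRE3 ran from SD9 through SD8 to SD11. GPR84, the receptor for medium-chain fatty acids that macrophages and neutrophils raise on endotoxin exposure, was 6.99, 8.77, 5.63, 7.26 and 6.79 in Ph1. In Ph2 it was 10.45 in SD8, 7.57 in SD9 and 7.02 in SD11. SD8 was the highest animal, and SD9 and SD11 lay within the Ph1 range, where SD7 was above both. Of the 15 pairs of a Ph2 and a Ph1 animal, the Ph2 animal was higher in 12 (exact p = 0.25). The difference was 1.26 ± 1.18 (SE), 0.21 without SD8 and 1.92 without SD11.

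ANKRD22, an ankyrin repeat protein of inflammatory monocytes and of epithelium, lay between 7.75 and 9.04 in Ph1. It was 8.76 in SD8, 9.48 in SD9 and 7.22 in SD11, so that again SD9 was above and SD11 below the Ph1 animals (means 8.50 and 8.49, exact p = 0.786). ADGRE3, an adhesion G protein-coupled receptor of myeloid cells, lay between 5.70 and 7.67 in Ph1 and was 6.67, 7.51 and 6.43 in SD8, SD9 and SD11, all within that range (difference 0.17 ± 0.46, SE; exact p = 1). HAL, the histidine-degrading enzyme histidase, had low values in SD2 (8.37) and SD7 (7.80) of Ph1 and values from 9.65 to 10.20 in the other 3. In Ph2 it was 8.78 in SD8, 11.05 in SD9 and 9.93 in SD11. The Ph2 mean was higher by 0.71 ± 0.81 (SE; exact p = 0.571), by 0.15 without SD9 and by 1.28 without SD8.

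The 4 surface and matrix genes had a lower mean in Ph2 on the deposited scale, with a median difference of -0.19 and exact p-values from 0.0714 to 0.786. For TGFBI and SULF2 the difference was close to 0, and 2 of 4 were lower after centring on the median of the markers, after scaling to the sum of the features and without SD7. MME, the membrane peptidase neprilysin (CD10) of mature neutrophils and of lung epithelium and stroma, was 13.12 in SD2, 13.02 in SD7, 13.03 in SD10, 12.74 in SD1 and 13.29 in SD14 of Ph1. It was 12.66 in SD8, 10.77 in SD9 and 12.87 in SD11 of Ph2. SD8 and SD9 lay below all Ph1 animals, and SD11 lay above SD1 alone. The Ph2 mean was lower by 0.94 (difference -0.94 ± 0.68, SE). The exact Mann-Whitney p was 0.0714, and the exact permutation p of the means was 0.0357, the smallest possible. Without SD9 the difference was -0.27.

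As a share of all counts, MME took 41.6, 38.6, 38.3, 40.1 and 40.1% in the Ph1 animals SD2, SD7, SD10, SD1 and SD14. In Ph2 it took 30.7% in SD8 (95% Wilson interval 30.1 to 31.2), 8.76% in SD9 (8.38 to 9.15) and 37.5% in SD11 (36.8 to 38.2). On this scale the groups did not overlap (39.7 ± 1.34% against 25.7 ± 15%, SD; exact p = 0.0357, adjusted p = 0.714 over the 20 features), but SD11 differed from the lowest Ph1 animal by less than 1 percentage point and their intervals overlapped. A share moves with the other features too, TCN1 in SD9 among them.

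CEACAM1, an adhesion molecule of epithelium, endothelium and activated leukocytes, was 10.16, 10.38, 9.92, 10.56 and 10.54 in Ph1. It was 9.92 in SD8, 9.67 in SD9 and 10.34 in SD11. SD9 was the lowest animal, and SD8 lay beside SD10 of Ph1. The difference was -0.33 ± 0.23 (SE; exact p = 0.25), and the Ph2 animal was higher in 3 of 15 pairs. Without SD9 the difference was -0.18, and without SD11 it was -0.51. TGFBI, a matrix protein induced by TGF-beta, spread from 8.53 to 9.81 in Ph1 and was 9.87 in SD8, 8.17 in SD9 and 9.52 in SD11 (difference -0.046 ± 0.56, SE; exact p = 0.786). SULF2, a sulfatase that edits heparan sulfate, was 6.70, 7.0 and 7.08 in the Ph2 animals, inside the Ph1 range of 6.25 to 7.29 (difference -0.045 ± 0.22, SE; exact p = 0.786).

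**Figure D2:**
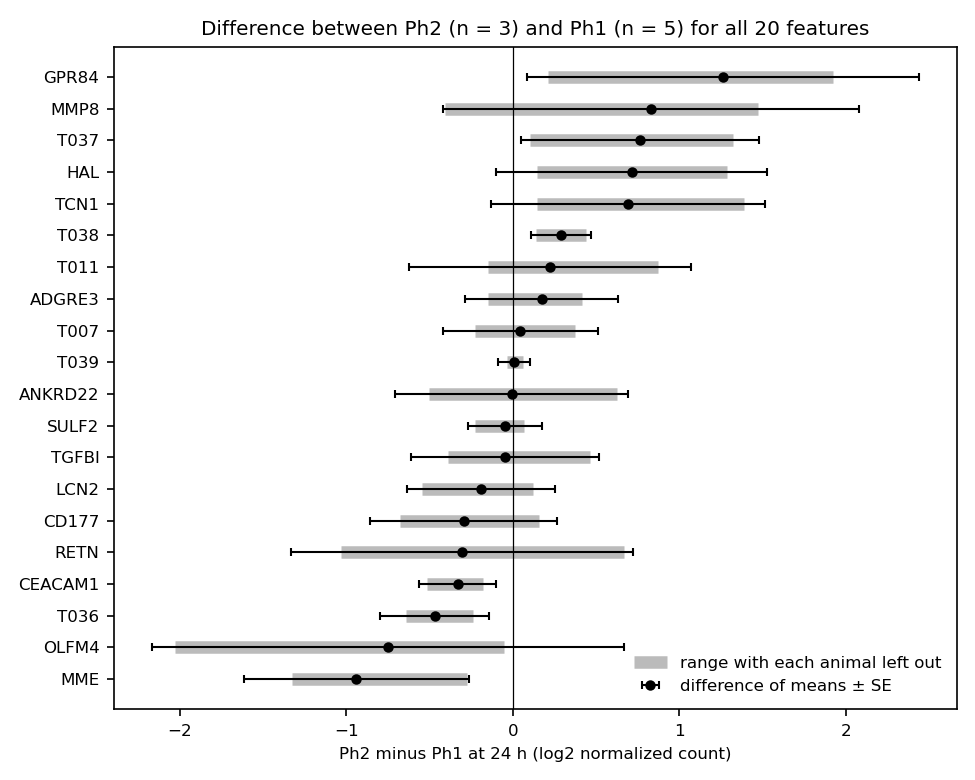
Difference of the means of Ph2 (n = 3) and Ph1 (n = 5) on the x axis, in log2 normalized counts, for all 20 features, with the SE (black) and the range of the difference when each of the 8 animals is left out in turn (grey bar). GPR84 lies highest at 1.26 and MME lowest at -0.94, and the grey bar crosses 0 for 8 of the 14 markers.

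The difference of means was larger than the SD of the Ph1 animals for 4 of 14 markers, MMP8, GPR84, CEACAM1 and MME, and for 6 of all 20 features. With each animal left out in turn this count lay between 3, without SD2, and 7, without SD8 or SD9. MMP8 and MME were among them each time, MMP8 with the opposite sign without SD9. GPR84 was not among them without SD2, SD10, SD14 or SD8, nor was CEACAM1 without SD1, SD14 or SD9. By the human subphenotype in which the study's source had found them higher, 3 of the 9 markers of the hyperinflammatory list had a higher mean in Ph2, and 3 of the 5 of the hypoinflammatory list had a lower mean. After centring on the median of the markers, 5 of the 9 were higher and 1 of the 5 was lower. Without SD11, 6 of the 9 were higher, and without SD7 1 of the 5 was lower. On the deposited scale, the median differences of these lists were -0.19 and -0.05, against -0.00015 over all 20 features.

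The spread between animals was wider in Ph2 for 12 of 14 markers and for 14 of all 20 features. The median SD of the markers was 0.49 in Ph1 and 1.15 in Ph2, and over all 20 features it was 0.49 and 1.01. The 2 markers with the wider spread in Ph1 were ADGRE3 (SD 0.72 against 0.57) and SULF2 (0.42 against 0.20). The widest ratios among the markers were those of MME (0.20 in Ph1, 1.16 in Ph2, 5.86 times), MMP8 (0.40 and 2.14, 5.39 times) and RETN. A permutation test of the ratio over all assignments, with values centred on their own group mean, gave unadjusted p-values no lower than 0.0714, for MME and MMP8. In this test 0 of 20 features had a p below 0.05. It is approximate, because values centred on the means of 3 and 5 animals are not fully interchangeable. With 3 animals in Ph2 the test has little power, and a p above the threshold does not show that the spreads were alike. Without SD9, the number of markers with the wider spread in Ph2 was 7 of 14, and the larger SD of MME and MMP8 was then that of Ph1.

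**Figure D3:**
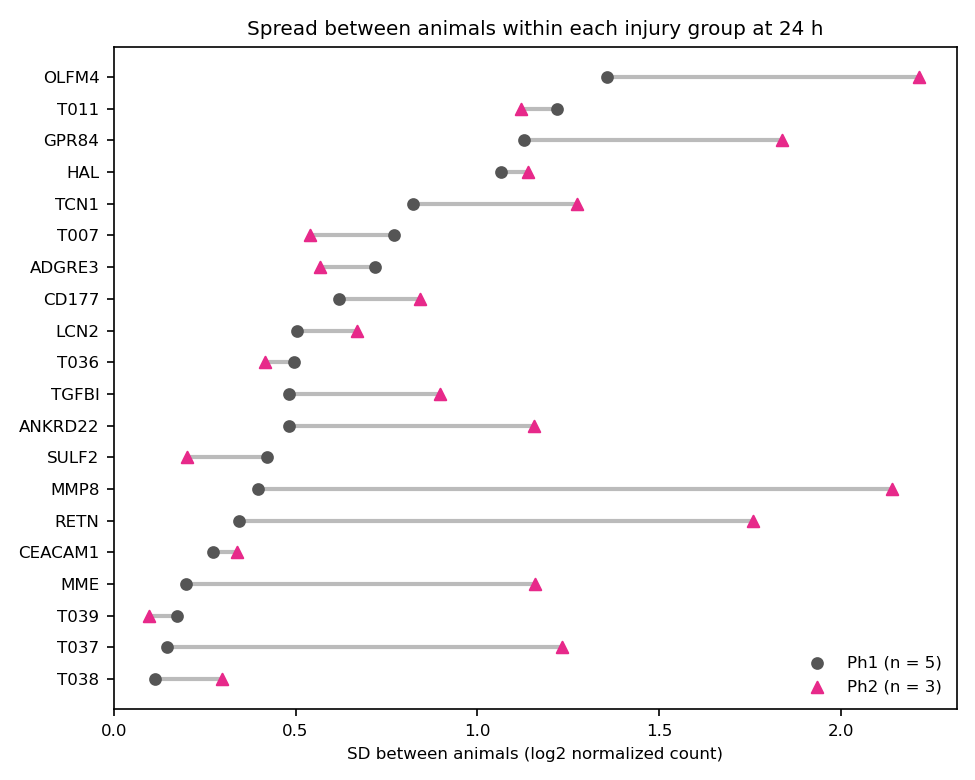
SD between animals on the x axis, in log2 normalized counts, of Ph1 (grey circles, n = 5) and Ph2 (pink triangles, n = 3) for all 20 features, ordered by the SD in Ph1. The triangle lies to the right for 14 features, farthest for OLFM4, MMP8 and GPR84, at 2.21, 2.14 and 1.84.

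Each Ph2 animal had a marker profile of its own. In SD9, 6 of 14 markers lay above the Ph1 range (MMP8, OLFM4, RETN, TCN1, HAL and ANKRD22), 3 below it (CEACAM1, MME and TGFBI) and 5 within it. Its mean deviation from the Ph1 mean was 1.28 over the 6 neutrophil genes, 0.76 over the 3 myeloid genes and -0.99 over the 4 surface and matrix genes. The neutrophil genes of SD9 ran from -0.81 for LCN2 to 3.30 for MMP8. Its surface and matrix genes ran from -2.27 for MME to 0.028 for SULF2. Across the 14 markers, the median size of the deviation was 1.02.

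SD8 had 3 markers above the Ph1 range (GPR84, LCN2 and TGFBI), 3 below it (OLFM4, TCN1 and MME) and 8 within it. Its neutrophil genes deviated by -0.46 on average, from -2.14 for OLFM4 to 0.52 for LCN2. The OLFM4 value rested on 7 counts, no higher than the larger count of T007 and T011 in SD8. The myeloid genes of SD8 deviated by 1.20 on average, to which GPR84 gave the most. SD11 had 0 markers above the Ph1 range and 4 below it, OLFM4, RETN, ANKRD22 and CD177. OLFM4 and CD177 rested there on 6 counts each, no higher than the larger count of T007 and T011 in SD11. The mean deviation of SD11 was -0.83 over the neutrophil genes, which ran from -2.26 for RETN to 1.00 for TCN1. MMP8 rested on 11 counts in SD11, also no higher than that larger count. Over the surface and matrix genes of SD11 the mean deviation was 0.065. The median size of the deviation was 0.41 in SD8 and 0.32 in SD11, against 0.20 to 0.40 in the 5 Ph1 animals, whose own values enter the Ph1 mean. SD9 thus lay farthest from the Ph1 mean of the 8 animals, while the value of SD11 was within the span of the Ph1 animals.

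**Figure D4:**
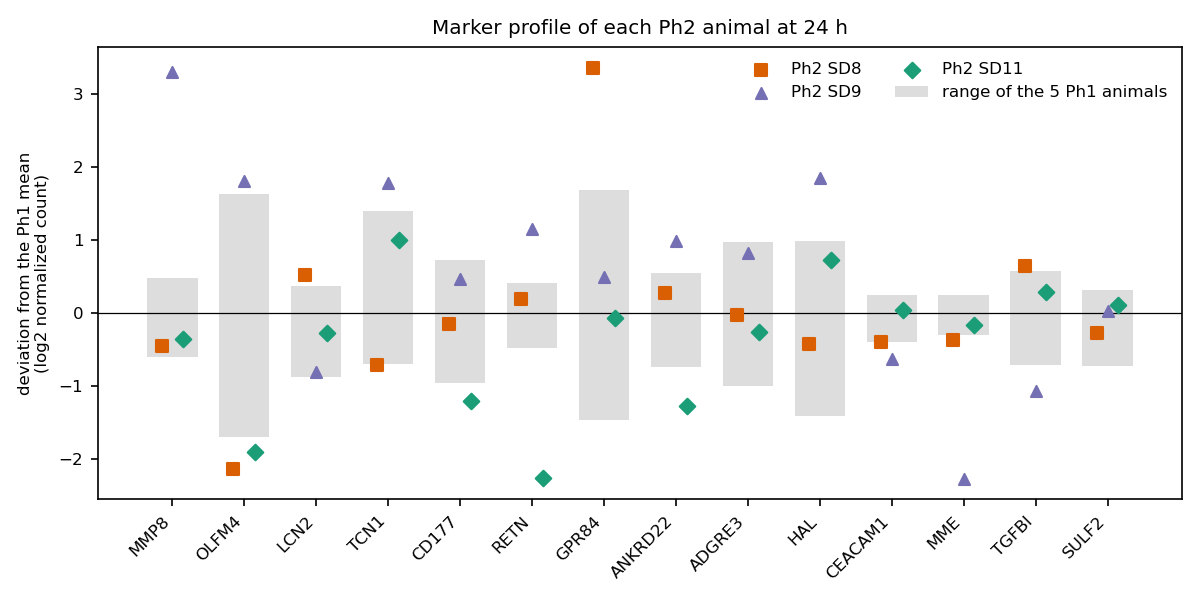
Deviation of each Ph2 animal from the Ph1 mean (y axis, log2 normalized counts) for the 14 markers, with the range of the 5 Ph1 animals as a grey bar. SD9 (purple triangles) lies above the bar for 6 markers and below it for 3, SD8 (orange squares) above for 3 and below for 3, and SD11 (green diamonds) below for 4. OLFM4 in SD8 rests on 7 counts, and OLFM4 and CD177 in SD11 on 6 each.

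Within Ph1 the animals also differed by marker. SD10 was the lowest of all 8 animals for MMP8, GPR84 and ADGRE3, SD2 was the highest for ADGRE3 and CD177, and SD14 was the highest for MME and the lowest for SULF2. The widest markers in Ph1 were OLFM4 (SD 1.36), GPR84 (1.13) and HAL (1.06), and the narrowest were MME (0.20) and CEACAM1 (0.27).

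The differences at 24 h were set against those at 6 and 12 h. For OLFM4, the Ph2 minus Ph1 difference was -0.75 at 24 h and 2.63 as the mean of the 2 earlier times, a departure of -3.38 ± 1.27 (SE; limma on 23 animals, unadjusted p = 0.0152, adjusted p = 0.304). At 24 h the OLFM4 counts of SD8 and SD11 were 7 and 6, no higher than the larger count of T007 and T011. With low values raised to that count, the 24 h difference was -0.14. The departure was not refitted with raised values. OLFM4 was the 1 of 20 features (5.0%) with an unadjusted p below 0.05, and 0 had an adjusted p below 0.05. For HAL the departure was 1.63 ± 0.81, for ADGRE3 0.87 ± 0.46 and for CD177 -0.89 ± 0.51 (adjusted p = 0.471 in limma for each). The sign at 24 h was other than that of the earlier mean for 7 of 14 markers, and 11 of 14 differences were smaller in size. Among the features without a gene name, the sign turned for T007, T011, T036 and T038, but not for T037 and T039. The earlier mean was only 0.0018 for T036 and -0.013 for T038. T007 and T011 had 3 to 16 and 5 to 41 counts at 24 h. These sign changes therefore cannot tell whether the turn was particular to the markers. The difference was smaller in size for T007, T011 and T039, and larger for T036, T037 and T038. Without SD9 the departure of OLFM4 was -4.66 ± 1.24, with an adjusted p of 0.0261 in limma, and the unadjusted p was above 0.05 without SD8 or without SD11. The 24 h animals all belonged to STARDUST and 0 to CELTIC, so observation time and study cannot be told apart in this contrast. The studies were also unevenly spread over the injury groups at the earlier times, with 2 of 3 Ph2 and 0 of 4 Ph1 animals from STARDUST at 12 h, and 0 of 3 and 1 of 5 at 6 h. With study as a term in limma, the departure of OLFM4 was -3.49 ± 1.34 (SE; unadjusted p = 0.0172, adjusted p = 0.344), a fit chosen after the data were seen.

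**Figure D5:**
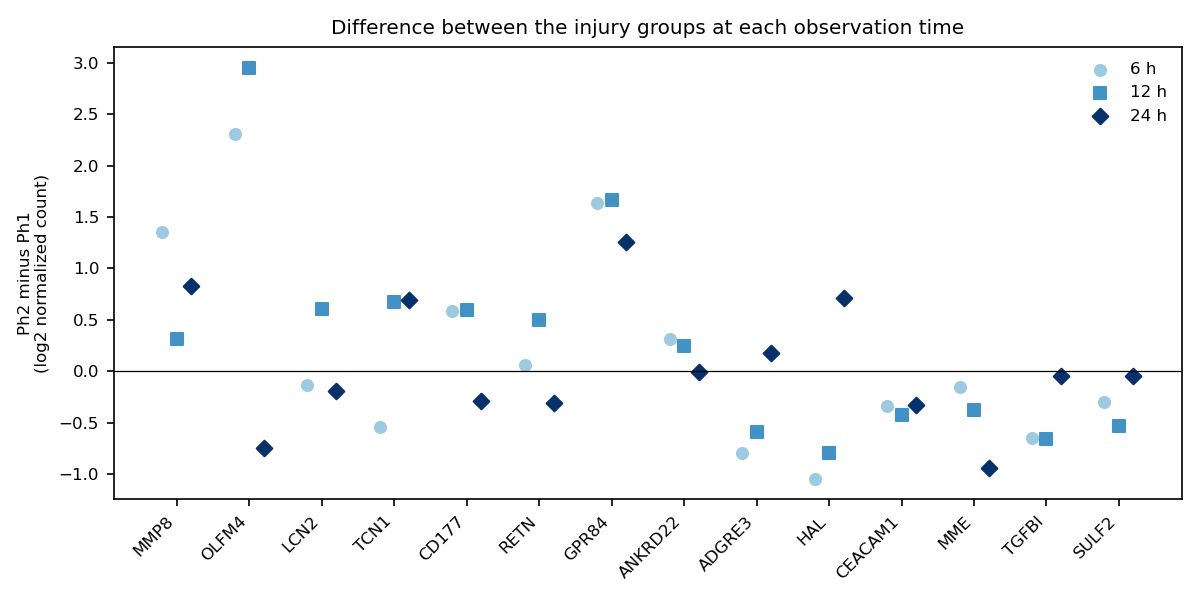
Difference of the means of Ph2 and Ph1 (y axis, log2 normalized counts) for the 14 markers at 6 h (light circles), 12 h (squares) and 24 h (dark diamonds). OLFM4 lies at 2.31 and 2.96 at the earlier times and at -0.75 at 24 h, and HAL at -1.05, -0.79 and 0.71. At 24 h OLFM4 rests on 7 counts in SD8 and 6 in SD11.

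Among the features without a gene name, T037 had the widest ratio of spreads (8.48 times as large an SD in Ph2). It was 9.23, 9.36, 9.09, 9.08 and 9.39 in the Ph1 animals and 9.79, 11.32 and 8.88 in SD8, SD9 and SD11 (exact p = 0.571). SD9 had the highest value and SD11 the lowest, and the SD was 0.14 in Ph1 and 1.23 in Ph2. T036, T038 and T039 differed by -0.47, 0.29 and 0.0069, and the exact p was 0.393 for the first and second of them. T007 and T011 had 3 to 16 and 5 to 41 counts and differed by 0.04 and 0.23. The probe table holds 6 housekeeping genes, but which of them the 4 features T036 to T039 are is not settled by the sources used here. The mean of any 3 of these 4 features varied over the 8 animals, with a range of 0.50 to 0.92. Which features scaled the deposited counts is thus not settled either.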

How the data were processed

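Expression in lung tissue of 23 sheep was taken from a table of 20 features, and groups, times and studies from the sample labels. The authors deposited log2 normalized counts. According to the methods, background (mean of the negative controls plus 2 SD) was subtracted in nSolver 4.0, and counts were scaled by 3 housekeeping genes (POLR2A, RPL19 and TBP) in nCounter Advanced Analysis 2.0. An error of this factor would move all features of an animal together. Within an animal, all values on the linear scale shared 1 common factor (whole multiples within 0.0001), and the smallest such multiples were taken as counts. Subtracting a background that is not a whole number would leave such multiples only after rounding. Whether background had been subtracted from the deposited values was not tested. The raw counts of the instrument were not used here, and no genome build applies.

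All 20 features were tested by the Mann-Whitney U test (exact, two-sided), as in the methods, with Benjamini-Hochberg adjustment over the 20. Spread was compared by permutation of the centred values over all assignments, and the departure from the earlier times by limma (lmFit and eBayes, 6 group means). All 14 markers are named, with values in the text by animal or, for some markers, by a range. The members and gene lists were chosen with earlier results of these data known. Alternatives covered other tests, medians, unlogged means, 3 other scalings, raised low values and leaving out each animal. Tests were first run on simulated data. Python 3.11.15 (numpy 2.4.6, scipy 1.17.1, pandas 2.3.3, matplotlib 3.10.9) and R 4.3.3 (limma 3.58.1) were used. Probe sequences came from the supplement of the study.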

Additional observations from a re-analysis of the deposited data

Results flagged for a closer look

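Among the 5 Ph1 animals, 1 animal lay apart from the others for 2 of 20 features, where its gap to the nearest animal exceeded 0.71 of the whole range (Dixon's ratio). Chance gives about 1 in 20. LCN2 was 11.06 in SD1, against 11.96 to 12.30 in the others (2530 counts, ratio 0.723). SULF2 was 6.25 in SD14, against 7.0 to 7.29 (67 counts, ratio 0.719). The 3 Ph2 animals are too few for this rule.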

How the results depend on the processing

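Of 14 markers, 6 (OLFM4, GPR84, CEACAM1, TCN1, MME and HAL) kept the sign of their difference under all alternatives run and with each animal left out. With medians the sign turned for MMP8 (-0.37), RETN (0.16), TGFBI (0.15) and ANKRD22 (0.16), and with means of unlogged values for RETN (0.22), TGFBI (0.056), ANKRD22 (0.20), T007 (-0.080) and T011 (-0.025). Centring on the median of the markers turned LCN2 (0.025), TGFBI (0.17), ANKRD22 (0.21) and SULF2 (0.17). Centring on T036 to T039 turned T007 (-0.10) and T039 (-0.14). Scaling to the sum of the features turned TGFBI (0.014), ANKRD22 (0.053) and SULF2 (0.015). With each animal left out, the difference lay between -0.40 and 1.47 for MMP8, -1.03 and 0.67 for RETN, -0.54 and 0.12 for LCN2, -0.15 and 0.42 for ADGRE3, -0.39 and 0.46 for TGFBI, -0.50 and 0.63 for ANKRD22, -0.23 and 0.069 for SULF2 and -0.68 and 0.16 for CD177. It lay between -0.23 and 0.37 for T007, -0.15 and 0.87 for T011 and -0.032 and 0.063 for T039. With each animal left out, the log2 SD ratio lay between -2.43 and 3.11 for MMP8 and between -0.43 and 3.21 for MME, negative without SD9. After scaling to the sum of the features it was 4.55 for MME.

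For the difference at 24 h, 0 features had an unadjusted p below 0.05. The count was 1, MME, by the exact permutation of means, by limma on 23 animals (p = 0.0241, adjusted p = 0.482) and after scaling to the sum of the features. The count for spread was 0, and 1 (T039) after centring on the median of the markers. The number of markers with a wider spread in Ph2 was 7 to 13 with each animal left out. The count of departures from the earlier times was 1, or 3 (OLFM4, ADGRE3 and HAL) after that centring, and 1 to 5 with each animal left out, and at an adjusted p below 0.05 it was 0 to 1. The cause was not tested. No paired analysis was possible because each animal belongs to a single group. With study as a term in limma, added after the data were seen, the counts of departures were the same. The 3 Ph2 animals and counts down to 6 in OLFM4 and CD177 limit the precision.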
